A study of Mus musculus with 10 samples.

Results

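The genes described here are the kinases and scaffold proteins through which RAS signals reach ERK in the heart. They comprise 8 genes chosen by name for their role in the cascade, *Araf*, *Braf*, *Map2k1*, *Map2k2*, *Mapk3*, *Ksr1*, *Shoc2* and *Rps6ka1*, of 54532 genes in the deposited expression table. All 8 were in the table and all 8 passed the expression filter, a mean of at least 0.5 FPKM, which kept 12602 genes. FPKM are fragments normalized to gene length and to a size term of each library. Messenger RNA was sequenced from 10 hearts of mice that carry the Noonan syndrome variant M90I in 1 copy of the small GTPase gene *Rit1* (genotype Rit1 M90I/+). The vehicle control group (n = 5) received the carrier solution, carboxymethylcellulose with Tween 80, and the MEKi group (n = 5) received trametinib, an allosteric inhibitor of MEK1 and MEK2, at 1 mg/kg. Daily treatment ran for 20 weeks from 4 weeks of age in both groups. The variant was switched on in all tissues by crossing conditional Rit1 M90I males to cytomegalovirus-Cre deleter females, so vehicle and MEKi hearts alike carry it in every cell type, and hearts without the variant were not analysed here. The labels call the hearts of a group biological replicates, and the methods state that littermates of both sexes were used.

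In this cascade, active RAS recruits RAF kinases to the membrane, RAF phosphorylates MEK, and MEK phosphorylates ERK, which then acts on targets in the cytoplasm and nucleus. Scaffolds such as KSR1 hold RAF, MEK and ERK together, and SHOC2 brings a phosphatase to RAF that removes an inhibitory phosphate. Germline activating variants of the pathway cause Noonan syndrome and related conditions, in which cardiac hypertrophy is frequent. The drug acts on the MEK proteins and signalling is carried by phosphorylation, neither of which mRNA levels measure.

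The 250 bases upstream of the annotated start are shown for *Map2k1*, *Map2k2* and *Shoc2*, because the levels of these 3 genes varied together or oppositely between hearts (described after the group comparison). The sequences are from RefSeq on build GRCm38.p6, given 5′ to 3′ on the strand of the gene. Capitals mark every match, on either strand, to GGGCGG (the GC box bound by Sp1 factors), to CCAAT (the CCAAT box bound by NF-Y), to TGACG (the core of a cAMP response element) or to CCGGAA (the core of an ETS site). TATAAA, the TATA box, was searched too, and no matches overlap each other in these windows. *Map2k1*, which encodes MEK1, has its window at chr9:64253606-64253855 on the minus strand, whose last 26 bases lie within the gene as deposited. *Map2k2*, which encodes MEK2, has its window at chr10:81105665-81105914 on the plus strand, and *Shoc2* at chr19:53944056-53944305 on the plus strand.
Map2k1: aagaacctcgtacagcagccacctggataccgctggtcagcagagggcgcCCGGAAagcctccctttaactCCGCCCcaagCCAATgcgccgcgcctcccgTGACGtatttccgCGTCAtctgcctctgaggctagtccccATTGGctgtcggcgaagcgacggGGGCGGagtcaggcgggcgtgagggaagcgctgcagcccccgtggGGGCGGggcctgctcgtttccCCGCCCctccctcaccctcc
Map2k2: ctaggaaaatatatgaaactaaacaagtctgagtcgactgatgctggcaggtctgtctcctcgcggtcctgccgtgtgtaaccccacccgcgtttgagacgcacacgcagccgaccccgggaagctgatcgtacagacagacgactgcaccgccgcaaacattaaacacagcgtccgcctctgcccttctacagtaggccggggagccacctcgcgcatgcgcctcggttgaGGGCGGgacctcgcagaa
Shoc2: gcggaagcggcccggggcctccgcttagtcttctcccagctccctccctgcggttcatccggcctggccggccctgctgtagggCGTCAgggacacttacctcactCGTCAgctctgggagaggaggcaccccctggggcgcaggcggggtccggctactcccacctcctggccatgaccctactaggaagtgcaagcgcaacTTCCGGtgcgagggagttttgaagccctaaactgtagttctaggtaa

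Letters of these motifs differed between the 3 windows. That of *Map2k1* held 4 matches to GGGCGG, 2 to CCAAT, 2 to TGACG and 1 to CCGGAA, that of *Map2k2* held 1 match to GGGCGG only, and that of *Shoc2* held 2 to TGACG and 1 to CCGGAA. Windows were matched by symbol for 7 of the 8 genes, all but *Mapk3*. GGGCGG occurred in 5 of the 7 windows and in 32.7% of 32851 windows of the same length over all RefSeq starts. TGACG occurred in 5 of 7 (17.8% of all windows), CCAAT in 4 of 7 (33.8%), CCGGAA in 3 of 7 (12.0%) and TATAAA in 0 of 7 (12.4%). GC content of the 7 windows ran from 51.2% in *Araf* to 74.4% in *Rps6ka1*, beside a median of 52.4% over all starts. These are letter matches and not sites of binding.

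The number of fragments on genes was 13647167 to 16659254 with vehicle and 14868373 to 18474002 with MEKi. All 6 cardiomyocyte markers were present, with summed levels of 14563 to 20089 FPKM in vehicle hearts and 14342 to 19792 FPKM in MEKi hearts. The summed level of 4 atrial markers was 2135 FPKM in vehicle 4, 1074 in MEKi 2 and 802 in vehicle 5. In the other hearts it was 125 to 456 FPKM. Vehicle 4 was also the lowest heart for *Braf* and *Rps6ka1*, which vehicle 5 and MEKi 2 were not. The part of atrial tissue in the levels below was not tested. Vehicle hearts 1 and 3 stood apart in the GC contrast, which was computed from gene levels and not from reads. The median deviation of GC-rich genes (upper quartile, at least 55.1% GC) minus that of GC-poor genes (lower quartile, at most 45.6%) was 0.26 on the log2 scale in vehicle 1 and −0.24 in vehicle 3, and between −0.10 and 0.09 in the other 8 hearts. *Xist* was at 5.86 FPKM on average in MEKi hearts and at most 0.00662 FPKM in any vehicle heart, and the Y-linked genes *Ddx3y*, *Eif2s3y* and *Uty* were listed at 0 in every MEKi heart. Treatment and sex-linked transcripts divided the hearts alike and cannot be told apart for any gene below.

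To ask whether 20 weeks of MEK inhibition went with another level of cascade mRNA, the groups were compared by limma on log2(FPKM + 0.1) over all genes tested, with Benjamini-Hochberg adjustment. None of the 8 genes passed the adjusted threshold of 0.05, which 0.0794% of all genes tested passed (10 of 12602). Those 10 include *Xist*, *Ddx3y*, *Eif2s3y* and *Uty*, and in a fit without X, Y and mitochondrial genes 0 genes passed. The 8 adjusted p-values ran from 0.755 to 0.990. At an unadjusted p under 0.05 the count was again 0 of 8, against 7.62% of all genes, and 0 of 8 had groups that did not overlap, against 1.64%. Of the 8 fitted differences, 4 were above 0 and 4 below, and their median log2 fold change was 0.00047 (MEKi minus vehicle) beside 0.011 over all genes. The median size of the difference without its sign was 0.06 for the 8 genes and 0.13 for all genes. These medians are a description only, because the genes were not matched for level. Each of the 8 intervals (95%) lay within a 1.5-fold change in either direction, the lowest bound being −0.46 for *Rps6ka1* and the highest 0.42 for *Map2k1*. With vehicle hearts 1 and 3 left out, 0 of 8 passed as well. In bulk tissue, fewer cells of a type and less RNA per cell cannot be told apart, so these are levels per heart sample.

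**Figure D1:**
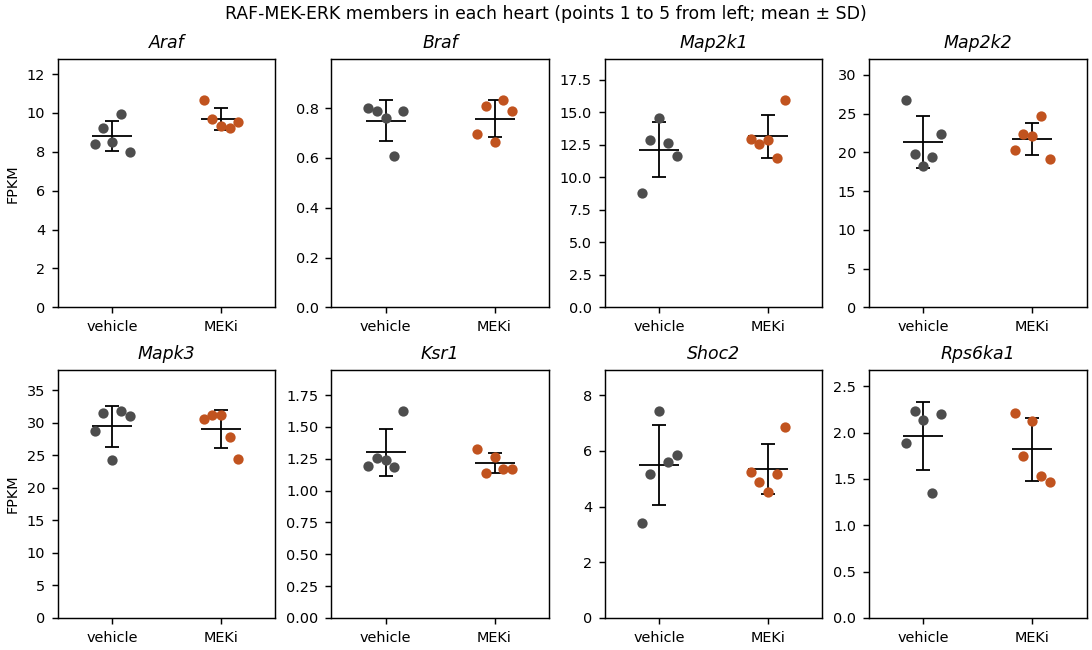
FPKM of each of the 8 genes (vertical axes, linear from 0, 1 scale per gene) in the 5 vehicle hearts (grey) and the 5 MEKi hearts (orange), with replicates 1 to 5 from left to right and the mean ± SD in black. The groups overlap in every panel, and the lowest vehicle values of *Map2k1* and *Shoc2* and the highest of *Map2k2* are those of vehicle 1.

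*Araf* (ENSMUSG00000001127, chromosome X, 20797814 to 20860519, plus strand) and *Braf* (ENSMUSG00000002413, chromosome 6, 39603237 to 39725463, minus strand) encode RAF kinases, which phosphorylate MEK. *Araf* was at 8.39, 9.22, 8.53, 9.95 and 7.98 FPKM in vehicle hearts 1 to 5 and at 10.6, 9.69, 9.34, 9.24 and 9.52 FPKM in MEKi hearts 1 to 5. Vehicle 1, 2, 3 and 5 were below every MEKi heart, while vehicle 4 was above all MEKi hearts but 1. The means were 8.81 ± 0.775 and 9.69 ± 0.562 FPKM (SD, n = 5 per group), a log2 fold change of 0.14 (SE 0.09, adjusted p = 0.755 by limma, exact permutation p = 0.0794). This was the largest difference of the 8 genes, and its interval (−0.05 to 0.33) included 0. *Araf* lies on the X chromosome, where the median log2 fold change of 383 genes tested was 0.04.

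*Braf* was the least abundant of the 8 genes. Its level was 0.802, 0.791, 0.761, 0.606 and 0.788 FPKM in vehicle hearts and 0.694, 0.807, 0.663, 0.831 and 0.790 FPKM in MEKi hearts, from 117 to 206 fragments per heart. The lowest value was that of vehicle 4 and the other 9 hearts lay between 0.663 and 0.831 FPKM. The log2 fold change was 0.01 (SE 0.16, adjusted p = 0.988 by limma), with an interval from −0.33 to 0.36.

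MEK1 and MEK2, the proteins that trametinib binds, are dual-specificity kinases that activate ERK. *Map2k1* (ENSMUSG00000004936, chromosome 9, 64185770 to 64253631, minus strand) was at 8.82, 12.9, 14.6, 12.6 and 11.7 FPKM in vehicle hearts and at 13.0, 12.5, 12.8, 11.5 and 15.9 FPKM in MEKi hearts. *Map2k2* (ENSMUSG00000035027, chromosome 10, 81105915 to 81133975, plus strand) was at 26.7, 19.8, 18.3, 19.4 and 22.4 FPKM in vehicle hearts and at 20.3, 22.3, 22.1, 24.6 and 19.2 FPKM in MEKi hearts. Vehicle 1 had the lowest *Map2k1* and the highest *Map2k2* of all hearts, and vehicle 3 and MEKi 5 had the highest *Map2k1* with the lowest *Map2k2*. Between groups, *Map2k1* was at 12.1 ± 2.12 against 13.1 ± 1.65 FPKM (SD, n = 5 per group; log2 fold change 0.13, SE 0.14, interval −0.17 to 0.42, adjusted p = 0.864 by limma), and without vehicle 1 its log2 fold change was 0.019. *Map2k2* was at 21.3 ± 3.37 against 21.7 ± 2.09 FPKM (SD, n = 5 per group; log2 fold change 0.04, SE 0.11, interval −0.22 to 0.29, adjusted p = 0.963 by limma). The genes for the drug's target proteins thus differed between groups by less than their spread within a group.

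*Mapk3* (ENSMUSG00000063065, chromosome 7, 126759601 to 126765819, plus strand) encodes the kinase ERK1, which MEK phosphorylates. *Mapk3* was at 28.7, 31.5, 24.2, 31.8 and 31.0 FPKM in vehicle hearts and at 30.6, 31.1, 31.1, 27.8 and 24.4 FPKM in MEKi hearts. Vehicle 3 and MEKi 5 were the lowest hearts of their groups at nearly the same level, and the other 8 hearts were at 27.8 FPKM or more. The means were 29.4 ± 3.17 and 29.0 ± 2.94 FPKM (SD, n = 5 per group; log2 fold change −0.02, SE 0.10, adjusted p = 0.973 by limma). Its interval, −0.25 to 0.21, corresponds to a change between −15.9% and 15.5% and was the narrowest after that of *Araf*.

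*Ksr1* (ENSMUSG00000018334, chromosome 11, 79013440 to 79146407, minus strand) encodes a RAF-related scaffold that brings MEK to RAF. It was at 1.20, 1.26, 1.24, 1.18 and 1.63 FPKM in vehicle hearts and at 1.33, 1.14, 1.27, 1.17 and 1.17 FPKM in MEKi hearts. Vehicle 5 was above all others, and the remaining 9 hearts lay between 1.14 and 1.33 FPKM. The log2 fold change was −0.08 (SE 0.13, interval −0.36 to 0.20, adjusted p = 0.916 by limma), and −0.0046 without vehicle 5. In vehicle 5 the summed level of the 5 macrophage markers was 172 FPKM, against 93.0 to 132 FPKM in the other hearts, and that of the 4 neutrophil markers was 86.6 FPKM, against 30.0 FPKM or less. The same heart was also highest for the summed fibroblast (223 FPKM, others at most 202), endothelial (158, others at most 128), mural (209, others at most 182) and red cell markers (25874, others at most 23639). Their part in the *Ksr1* value was not tested. *Ksr2*, the second KSR gene, had 0 fragments in all 10 hearts.

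*Shoc2* (ENSMUSG00000024976, chromosome 19, 53944306 to 54033268, plus strand), a Noonan-like syndrome gene whose protein forms a complex with MRAS and protein phosphatase 1, varied most between hearts. It was at 3.42, 5.17, 7.43, 5.59 and 5.87 FPKM in vehicle hearts and at 5.25, 4.87, 4.54, 5.18 and 6.87 FPKM in MEKi hearts. The lowest and the highest heart were both in the vehicle group, vehicle 1 and vehicle 3, and the whole MEKi range lay between them. The log2 fold change was −0.01 (SE 0.18, interval −0.41 to 0.39, adjusted p = 0.990 by limma). Within a group *Shoc2* had a coefficient of variation of 22.2%, of which counting of fragments alone would give 5.32%.

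*Rps6ka1* (ENSMUSG00000003644, chromosome 4, 133847290 to 133887797, minus strand) encodes RSK1, a ribosomal S6 kinase that ERK activates. It was at 1.88, 2.23, 2.13, 1.35 and 2.19 FPKM in vehicle hearts and at 2.21, 1.75, 2.13, 1.54 and 1.46 FPKM in MEKi hearts. Vehicle 4 had the lowest value, and values near 1.5 and near 2.2 occurred in the MEKi group. The log2 fold change was −0.10 (SE 0.17, interval −0.46 to 0.27, adjusted p = 0.925 by limma), on 80 to 161 fragments per heart. Counting alone gives *Rps6ka1* a coefficient of variation of 8.93%, against 18.6% found within groups.

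**Figure D2:**
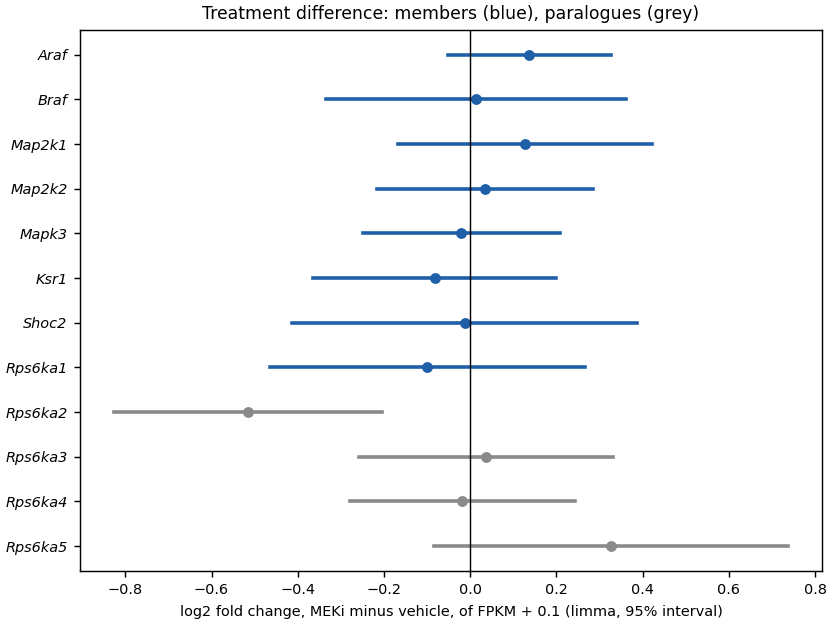
Log2 fold change, MEKi minus vehicle, of FPKM + 0.1 (points, horizontal axis) with its 95% interval (lines) from limma, for the 8 genes (blue) and 4 ribosomal S6 kinase paralogues (grey). All 8 blue intervals include 0, and of the grey ones that of *Rps6ka2* alone does not, with a log2 fold change of −0.52 and an adjusted p of 0.401.

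The rest of the pathway was read from 69 further genes in 7 lists, of which 61 passed the expression filter. None passed the adjusted threshold, 32 were fitted above 0 and 29 below, and the median log2 fold change was 0.0040. At an unadjusted p under 0.05 there were 2 of 61, against 7.62% of all genes. *Rps6ka2*, which encodes the related ribosomal S6 kinase RSK3, was at 3.62, 4.08, 4.79, 3.71 and 5.02 FPKM in vehicle hearts and at 3.72, 2.36, 2.54, 3.02 and 3.12 FPKM in MEKi hearts. MEKi 1 lay within the vehicle range, and the other 4 MEKi hearts were below every vehicle heart. The log2 fold change was −0.52 (SE 0.14, adjusted p = 0.401 by limma, exact permutation p = 0.0238), so the difference did not pass over all genes. *Ppp1ca*, which encodes a catalytic subunit of protein phosphatase 1, averaged 179 ± 16.8 FPKM under vehicle and 207 ± 19.3 under MEKi (SD, n = 5 per group; log2 fold change 0.21, SE 0.10, adjusted p = 0.652 by limma, exact permutation p = 0.0317).

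By list, the 4 SHOC2 phosphatase partners were all fitted above 0 (median log2 fold change, 0.15), and besides *Ppp1ca* they include *Ppp1cc* (0.13, adjusted p = 0.870 by limma) and the SHOC2-binding GTPase gene *Mras* (0.18, adjusted p = 0.886 by limma). Of the scaffolds and RAF regulators, 15 of 18 passed the filter, 6 fitted above 0 and 9 below. The smallest unadjusted p-values there belonged to the arrestin gene *Arrb2* (log2 fold change −0.26, adjusted p = 0.715 by limma), to *Lamtor2*, whose protein is part of the late endosomal MEK scaffold (0.31, adjusted p = 0.757 by limma), and to *Cnksr3* (0.28, adjusted p = 0.777 by limma). Of 10 chaperones and phosphoserine-binding adaptors of RAF, 4 were fitted above 0 and 6 below. *Hsp90aa1*, an inducible HSP90 chaperone gene, averaged 60.1 ± 28.9 FPKM under vehicle and 40.8 ± 10.2 under MEKi (SD, n = 5 per group; log2 fold change −0.49, adjusted p = 0.707 by limma), and vehicle 3 alone was at 110 FPKM. Of the other ERK-activated kinases, 6 of 7 passed the filter. *Rps6ka5*, which encodes MSK1, had a log2 fold change of 0.33 (adjusted p = 0.715 by limma), and *Rps6ka3*, the X-linked gene for RSK2, of 0.04 (adjusted p = 0.963 by limma).

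On the FPKM scale, a level per gene length, the order of the mean over 10 hearts was *Mapk3* (29.2), *Map2k2* (21.5), *Map2k1* (12.6), *Araf* (9.25), *Shoc2* (5.42), *Rps6ka1* (1.89), *Ksr1* (1.26) and *Braf* (0.753). Each of the 7 neighbouring pairs stood in this order in 10 of 10 hearts. The ranges over hearts still overlapped for *Mapk3* and *Map2k2*, for *Map2k1* and *Araf*, and for *Rps6ka1* and *Ksr1*, although no heart reversed them. The deposited length of a gene can exceed that of any single transcript, and was 2.35 times the length of the longest coding transcript (GENCODE M21) for *Map2k2* and 2.29 times for *Araf*, against 1.06 times for *Shoc2*. The RefSeq start of *Araf* lies 50729 bases inside the gene as deposited. With fragments divided by the length of the longest coding transcript, a choice made after seeing the data, *Map2k2* (50.7) came before *Mapk3* (36.6) and *Araf* (21.2) before *Map2k1* (17.6), and 5 of the 7 neighbouring orders stayed. The order of the ERK and MEK genes at the top therefore rests on the length used, while *Shoc2*, *Rps6ka1*, *Ksr1* and *Braf* followed in the same order on both.

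**Figure D3:**
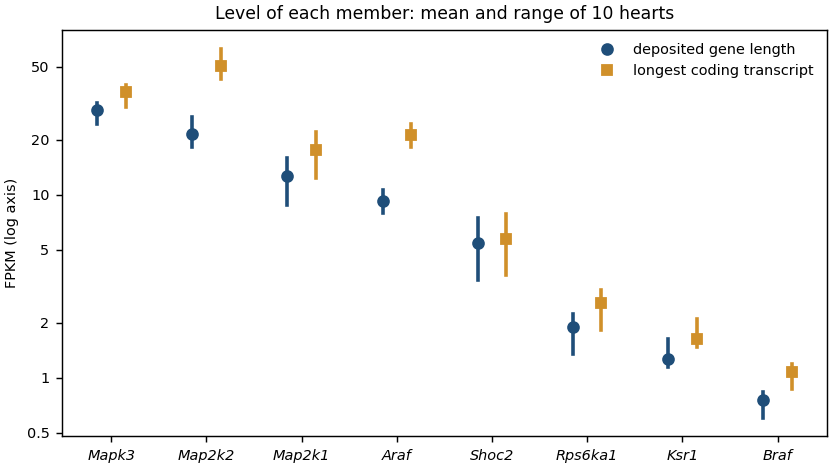
Mean level (symbols) and range over the 10 hearts (lines) of each gene in FPKM on a log axis, per deposited gene length (blue circles) and per length of the longest coding transcript (ochre squares). By coding length *Map2k2* moves above *Mapk3* and *Araf* above *Map2k1*, and the lower 4 genes keep their places.

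Between hearts, the MEK genes varied oppositely. Across the 10 hearts, log2 levels of *Map2k1* and *Map2k2* had a Pearson r of −0.88 (permutation p = 0.00037, adjusted p = 0.0104 over the 28 pairs of the 8 genes) and a Spearman rho of −0.90 (permutation p = 0.00082, adjusted p = 0.0230). Without vehicle 1 and MEKi 5, the hearts farthest from the median of *Map2k1*, r was −0.85. Within vehicle hearts r was −0.98 and within MEKi hearts −0.91. The summed level of both genes stayed between 32.0 and 36.1 FPKM, while the share of *Map2k1* in it ran from 24.8% in vehicle 1 to 45.3% in MEKi 5. Both rest on the deposited lengths, and by coding transcript length, chosen after seeing the data, the share ran from 16.3% to 32.9% in the same hearts and the sum from 63.3 in vehicle 3 to 75.1 in vehicle 1. No other pair passed the adjusted threshold by both measures.

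**Figure D4:**
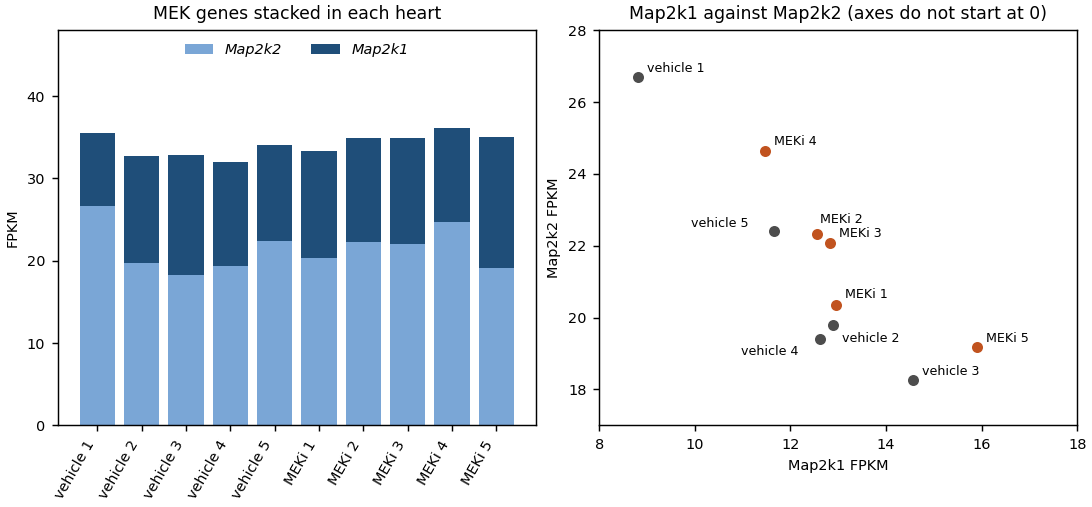
Left, *Map2k2* (light) and *Map2k1* (dark) FPKM stacked for each heart, from 0; right, *Map2k2* against *Map2k1* FPKM, 1 point per heart (vehicle grey, MEKi orange), on axes that do not start at 0. The stacked height stays between 32.0 and 36.1 FPKM, and the points fall from vehicle 1 at upper left to MEKi 5 and vehicle 3 at lower right.

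*Shoc2* followed *Map2k1* and opposed *Map2k2* by Pearson's measure only. For *Map2k1* and *Shoc2* r was 0.85 (permutation adjusted p = 0.0424) and rho 0.58 (permutation adjusted p = 0.527). Without vehicle 1 and MEKi 5, the 2 hearts farthest out on *Map2k1*, r was 0.51, so the relation rests largely on those hearts. Within vehicle hearts r was 0.93 and within MEKi hearts 0.80, each with 1 of those hearts included. For *Map2k2* and *Shoc2* r was −0.81 (permutation adjusted p = 0.0424) and rho −0.67 (permutation adjusted p = 0.369). Without vehicle 1 and MEKi 4, the hearts farthest out on *Map2k2*, this r was −0.72. It was −0.87 within vehicle hearts and −0.66 within MEKi hearts. *Ksr1* and *Rps6ka1* had an r of 0.60 (permutation adjusted p = 0.309) and a rho of 0.77 (permutation adjusted p = 0.178).

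*Shoc2* moved with the GC contrast of the hearts by Pearson's measure, while *Map2k1* and *Map2k2* did not pass the threshold. GC content is 40.7% for *Shoc2*, 51.2% for *Map2k1* and 60.4% for *Map2k2*. *Shoc2* thus belongs to the GC-poor quartile that the contrast subtracts, and *Map2k2* to the GC-rich quartile. The measure itself therefore favours a negative r for *Shoc2* and a positive r for *Map2k2*. How many other genes of these quartiles have as strong an r was not tested. Among 24 relations between the 8 genes and 3 measures of each heart, *Shoc2* against the GC contrast had an r of −0.92 (permutation p = 0.00048, adjusted p = 0.0115), a rho of −0.84 (permutation adjusted p = 0.0871) and an r of −0.69 without vehicle 1 and 3. *Map2k1* had an r of −0.79 and *Map2k2* of 0.74 with the same measure (permutation adjusted p = 0.118 for each), falling to −0.41 and 0.24 without those hearts. After a smooth trend with GC content was removed in each heart, the r of *Map2k1* and *Map2k2* was −0.69, that of *Map2k1* and *Shoc2* 0.84 and that of *Map2k2* and *Shoc2* −0.54. Without the 2 hearts farthest out on the first gene of each pair these became −0.64, 0.46 and −0.35. They are given without a p-value, so whether *Map2k1* and *Map2k2* still pass the threshold after this removal was not tested. The spread within groups became 0.676 times as large for *Map2k2* and 0.815 times for *Shoc2*, and 1.02 times for *Map2k1*. The treatment differences of all 8 genes stayed on the same side of 0, and 0 of 8 passed the threshold.

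**Figure D5:**
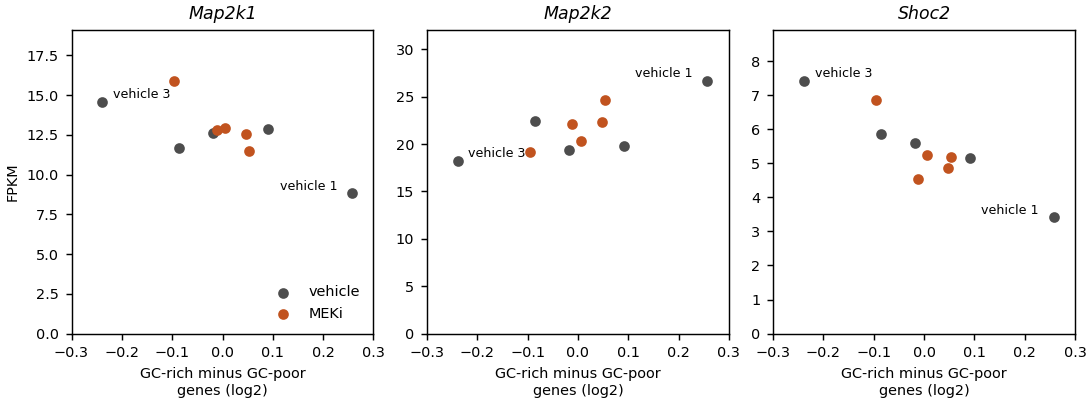
FPKM of *Map2k1*, *Map2k2* and *Shoc2* (vertical axes, from 0) against the GC contrast of each heart, the median log2 deviation of GC-rich minus that of GC-poor genes (horizontal axes), for vehicle (grey) and MEKi (orange) hearts. Vehicle 1, at 0.26, and vehicle 3, at −0.24, are the horizontal ends of each panel, and *Map2k1* and *Shoc2* are lower and *Map2k2* higher in the former.

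The gene whose level was most alike to each of the 8 over the 10 hearts, after group means were subtracted, was found among the 10705 genes averaging 1 FPKM or more. *Smc3*, a cohesin subunit gene, was closest to *Shoc2* (Pearson r 0.98, rho 0.98), *Azi2* to *Map2k1* (0.98, 0.95) and *Eef1d*, a translation elongation factor gene, to *Map2k2* (0.97, 0.92). *Cav1*, which encodes the caveolar protein caveolin, was closest to *Mapk3* (0.97, rho 0.73), and *Alox5ap*, which encodes a leukotriene synthesis protein of myeloid cells, to *Ksr1* (0.96, rho 0.83). *Tspan12* was closest to *Araf* (0.94, 0.94), *Crtap* to *Rps6ka1* (0.93, 0.93) and *Gfra4* to *Braf* (0.90, 0.88). Each is the highest of many correlations over 10 hearts that differ in depth and in the GC contrast, and is given as a description.

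In GENCODE M21, exons of other genes on the opposite strand overlap 5 of the 8 genes, and whether the counting used strand is not given in the sources used here. The overlap covers, of the M21 exons, 1.05% of *Braf* (146 bases, with *Ndufb2*), 1.74% of *Shoc2* (97 bases, with *Bbip1*), 2.62% of *Ksr1* (186 bases, with *Gm11201*) and 5.80% of *Rps6ka1* (247 bases, with *Gm12977*, at 0 FPKM in every heart). For *Araf* it is 9 bases, with *Syn1*. *Ndufb2* averaged 8.30 FPKM (5.07 to 11.2 over hearts), against 0.753 FPKM for *Braf*. *Bbip1* averaged 8.88 FPKM (6.70 to 11.3), against 5.42 FPKM for *Shoc2*. *Gm11201* reached at most 0.339 FPKM and *Syn1* at most 0.235 FPKM. What fragments of these genes add to the levels of the 8 genes was not tested. The deposited end and length of *Shoc2* differ from those of M21.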

How the data were processed

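Poly(A)-selected RNA of 10 hearts was sequenced. The authors deposited FPKM per gene with gene lengths and coordinates, and the submitters' processing notes name fastp, STAR 2.5, HTSeq 0.6.1 and mm10. In every heart, the product of FPKM and gene length was a whole multiple of 1 step for 100% of values (tolerance 0.01), which gave fragments. The size term that this step implies was not the sum of fragments on genes. It was 1.42e+07 in vehicle 3, with 15371692 fragments, and 1.44e+07 in vehicle 2, with 13647167 fragments. Coordinates matched GENCODE M21 (GRCm38) for 98.3% of 54409 genes with its identifiers. GC content is that of M21 transcripts.

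Hearts were grouped by their labels. Log2(FPKM + 0.1) was fitted with limma 3.58.1 in R 4.3.3 (lmFit, eBayes with trend), two-sided, for genes averaging 0.5 FPKM or more, with Benjamini-Hochberg adjustment. This scale understates changes of low genes. For single genes an exact permutation test, two-sided, was run over 252 assignments (smallest p, 0.00794), and for correlations 100000 permutations were drawn, in Python 3.11.15 with scipy 1.17.1.

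Members and lists were chosen with earlier results of these data known. Named are the 8 genes, *Rps6ka2* and *Rps6ka3*, up to 3 genes per list with the smallest unadjusted p, the most alike gene of each member, and marker genes beside a result. *Ksr2* and *Rps6ka4* were outside this rule and were chosen after their values were seen, as were the genes that overlap a member. Some genes of this rule are not reported here. The alternatives were pseudocounts, filters, scalings, eBayes settings, array weights, gene classes, voom on recovered fragments, the replicate number as a block, and leaving out each heart. Removal of a GC trend, leaving out vehicle hearts 1 and 3 together, and coding transcript length were added after seeing the data.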

Additional observations from a re-analysis of the deposited data

Results flagged for a closer look

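Of 16 sets of 5 hearts (8 genes in 2 groups), 2 held a heart far from the other 4. The rule was a gap to the nearest heart of more than 0.71 of the range. About 0.8 sets would be expected if the sets were independent and normally distributed. They share the same hearts, so the count is a description and not a test. *Braf* was at 0.606 FPKM in vehicle 4, on 117 fragments, against 0.761 to 0.802 FPKM in the other vehicle hearts. Without vehicle 4 its log2 fold change was −0.05 (adjusted p = 0.967 by limma). *Ksr1* was at 1.63 FPKM in vehicle 5, on 168 fragments, against 1.18 to 1.26 FPKM in the other vehicle hearts. Without vehicle 5 its log2 fold change was −0.0046 (adjusted p = 0.999 by limma).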

How the results depend on the processing

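Over 25 alternatives, 196 fits of the 8 genes were made, and none passed the threshold (lowest adjusted p = 0.660 by limma, *Araf* on the TPM scale). The difference kept its sign in 179 fits and turned in 17, none of which passed the threshold. On the TPM scale, which moved the median of all genes from 0.011 to 0.088, *Mapk3* was at 0.057, *Shoc2* at 0.065 and the median of the 8 genes at 0.076. Rescaled without mitochondrial genes, *Braf* was at −0.013. Leaving out 1 heart at a time gave −0.051 to 0.055 for *Braf*, −0.017 to 0.12 for *Map2k2*, −0.089 to 0.040 for *Mapk3* and −0.17 to 0.10 for *Shoc2*. The sign of these 4 differences is therefore not determined. The sign held for *Map2k1* (0.019 without vehicle 1 to 0.20 without vehicle 3), *Rps6ka1* (−0.22 without vehicle 4 to −0.030 without MEKi 5), *Ksr1* (−0.11 without MEKi 1 to −0.0046 without vehicle 5) and *Araf* (0.10 to 0.18). These fits share most hearts, and the intervals of all 8 genes include 0. The sign is thus not determined for any of the 8 genes. All genes called numbered 10, and 18 with array weights, 2 at a mean of at least 5 FPKM, 6 without vehicle hearts 1 and 3, 5 to 13 with 1 heart left out (5 without vehicle 2), and 0 without X, Y and mitochondrial genes (924 at an unadjusted p under 0.05; limma). The replicate number as a block called 4 genes and 0 of the 8. Numbers did not pair hearts (correlation of same-numbered hearts, −0.15 to −0.02, with 0 of 5 closest to its own number), and the labels give them no shared origin. Fewer genes entered some of these fits: *Araf* was absent without X, and 5 of the 8 genes remained at a mean of at least 5 FPKM. By coding transcript length, 5 of 7 neighbouring level orders stayed. The cause of the other shifts was not tested. Depth limits *Braf*, *Ksr1* and *Rps6ka1* most, at 80 to 206 fragments per heart.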

Other observations

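The parallel MAP kinase modules (ERK5, p38 and JNK and the kinases above them) were measured beside the ERK cascade. Of 23 genes, 21 passed the expression filter and 12 were fitted above 0 and 9 below, the median log2 fold change was 0.05, and 0 passed the adjusted threshold. *Map2k5*, the gene for the kinase that activates ERK5, averaged 5.27 ± 0.904 FPKM under vehicle and 6.12 ± 0.321 under MEKi (SD, n = 5 per group; log2 fold change 0.23, SE 0.12, adjusted p = 0.696 by limma). *Mapk12*, which encodes p38 gamma, was at 8.95 ± 1.86 and 7.26 ± 0.973 FPKM (SD, n = 5 per group; log2 fold change −0.28, SE 0.16, adjusted p = 0.715 by limma). *Map2k7*, which encodes a JNK kinase, had a log2 fold change of 0.16 (adjusted p = 0.736 by limma). Of 4 atypical MAP kinase genes, 3 passed the filter and 0 the threshold, with values of −0.21 for *Nlk* (adjusted p = 0.759 by limma), 0.11 for *Mapk4* (adjusted p = 0.942 by limma) and 0.04 for *Mapk6* (adjusted p = 0.963 by limma).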
